A study of Mus musculus with 12 samples.

Results

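The snoRNA host genes are noncoding genes whose introns carry small nucleolar RNAs (snoRNAs), and 10 of the 53715 genes in the expression tables were taken as this set by name: Gas5, Snhg1, Snhg3, Snhg4, Snhg5, Snhg6, Snhg8, Snhg12, Snhg15 and Snhg17. Of these, 9 stood in the tables under that name, and Snhg15 (ENSMUSG00000085156) was found through its gene ID, since the tables list it under a clone name. All 10 passed the level filter in both tables. RNA-seq had been performed on 12 libraries in 6 groups of 2: ICM-derived mouse ES cells (from the inner cell mass of the blastocyst) given CX-5461, which blocks transcription of the ribosomal RNA genes by RNA polymerase I, ES cells given rapamycin, which inhibits the growth kinase mTOR, ES cells given rotenone, which inhibits complex I of the respiratory chain, untreated ES cells, C57BL/6J embryos given CX-5461, and untreated embryos. Every ES group was cultured with LIF/2i over mouse embryonic fibroblasts, and poly-A RNA was used for the libraries. The study's methods state removal of these fibroblasts for electron microscopy and flow cytometry, and not for RNA. Fibroblast markers were detected in every ES group. By the study's account, each drug was given to ES cells at a single dose and time. Embryos were pooled, their cDNA being amplified before library construction. The study calls the sequenced embryos blastocysts, and its legends for PCR of blastocysts state treatment at the morula stage. Nothing in the labels ties the 2 libraries of a group to separate cultures or litters, so p-values measure the spread between these libraries, although the study calls them independent.

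Most snoRNAs of mammals are released from introns after splicing of a host transcript. They then pair with ribosomal RNA in the nucleolus, where box C/D snoRNAs guide ribose methylation and box H/ACA snoRNAs guide pseudouridylation. The spliced remainder of a noncoding host gene has only short reading frames and is, for several of these genes, degraded by nonsense-mediated decay once ribosomes reach it. Host genes, noncoding or protein-coding, often begin with a terminal oligopyrimidine tract, a run of C and T at the first base that places an mRNA under mTOR control of translation in growing cells.

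The bases around the annotated start are shown because that run is a feature that many noncoding hosts share with ribosomal protein genes. RefSeq promoters (GRCm38.p6) matched 8 of the 10 genes, and Snhg4 and Snhg6 had no entry. Each line gives 60 bases, 30 before the start and 30 from the start onward, with the longest run of C and T that touches the 5 bases on either side of the start in capitals.
Gas5, second start, chr1:161035136-161035195, plus strand: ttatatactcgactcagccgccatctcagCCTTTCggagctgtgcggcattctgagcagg
Snhg1, chr19:8723457-8723516, plus strand: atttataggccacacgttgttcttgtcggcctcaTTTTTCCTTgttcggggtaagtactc
Snhg12, chr4:132308648-132308707, plus strand: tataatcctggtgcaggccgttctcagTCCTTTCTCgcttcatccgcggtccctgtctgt
Snhg8, chr3:123508307-123508366, minus strand: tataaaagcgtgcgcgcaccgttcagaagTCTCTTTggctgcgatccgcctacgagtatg
Snhg17, second start, chr2:158361480-158361539, minus strand: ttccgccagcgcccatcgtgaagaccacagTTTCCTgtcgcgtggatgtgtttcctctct
Snhg3, chr4:132353657-132353716, minus strand: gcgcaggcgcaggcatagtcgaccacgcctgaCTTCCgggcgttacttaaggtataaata
Snhg15, chr11:6528731-6528790, minus strand: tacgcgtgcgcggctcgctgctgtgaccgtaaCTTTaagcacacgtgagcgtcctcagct
Snhg5, chr9:88522868-88522927, minus strand: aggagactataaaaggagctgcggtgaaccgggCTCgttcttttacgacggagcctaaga
The run was 9 bases long in Snhg1 and Snhg12, and a run of at least that length touched the 5 bases on either side of the start in 6.65% of all 32851 promoters. It was 7 bases in Snhg8 (13.5% of promoters), 6 in Gas5 and Snhg17 at the starts shown (20.2%), 5 in Snhg3 (31.4%) and 4 in Snhg15 (46.7%). At the other start of Gas5 and of Snhg17, and in Snhg5, the run was 3 bases (65.4%), although in Snhg5 a longer run follows within the bases shown, farther from the start. Over the 10 starts the median run was 5.5 bases, against 3 over all promoters, whether or not the run held the first base. It held the first base in Snhg12, in Snhg8 and at the starts of Gas5 and Snhg17 shown. In Snhg3 and Snhg15 it began at base 3, in Snhg5 at base 4 and in Snhg1 at base 5. At the other start of Gas5 and of Snhg17 it ended before the first base. RefSeq starts mark 1 base where a gene can start at several, and no start sites were measured here.

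Levels are in TPM (transcripts per 1000000 transcripts), as deposited by the authors, with every library rescaled to a total of 1000000. That step matters for embryo control 1, whose deposited values summed to 639063 TPM, while the other 11 summed to between 999805 and 999914. TPM values hold no read counts, and the depth of the libraries is therefore unknown. Between 14521 and 17104 genes reached 1 TPM in the ES libraries, with both CX-5461 libraries highest, and between 12397 and 13703 in the embryo libraries. Fibroblast markers (23 genes, among them Col1a1 and Thbs1, none at 0 in the ES groups) summed to 7004 to 7421 TPM in CX-5461-treated ES cells, 6311 to 6690 TPM in rotenone-treated ES cells, 3391 to 3882 TPM in rapamycin-treated ES cells and 2259 to 2602 TPM in untreated ES cells. In ES cells given CX-5461 the primitive endoderm markers (6 genes) summed to 26.5 to 29.1 TPM and the trophectoderm markers (8 genes) to 151 to 153 TPM, against 4.04 to 4.32 TPM and 93.4 to 109 TPM in untreated ES cells. The primitive endoderm markers summed to 10.5 to 11.3 TPM with rotenone and to 6.84 to 7.06 TPM with rapamycin. These sums were higher with CX-5461, and those of the fibroblast and primitive endoderm markers also with rotenone and, less, with rapamycin. With rapamycin none of the 23 fibroblast and 4 primitive endoderm markers tested was called (limma, adjusted p under 0.05), and few genes of any kind were. Pdgfra is in both of these lists. The part of all these markers in the ES results below was not tested. The ES cell markers summed to 4373 to 4499, 5728 to 5750, 6428 to 6645 and 6455 to 6524 TPM in the same order as the fibroblast markers. Single ES cell markers went both ways. Of the 8, 4 were called lower and 1 higher with CX-5461 (11.0% and 42.0% of all genes). With rotenone 2 were lower and 2 higher (9.57% and 30.6% of all genes). In embryos the trophectoderm markers summed to 4466 to 6346 TPM with CX-5461 and to 4754 to 4799 TPM without it, and the fibroblast markers to at most 77.3 TPM, with 9 and 10 of the 23 at 0 in both libraries of the CX-5461 and the untreated group. Because these are bulk samples, fewer cells of a type and less RNA per cell cannot be told apart.

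In untreated ES cells all 10 genes were well above the filter, from Snhg4 at 14.8 and 25.3 TPM to Snhg1 at 452 and 392 TPM. Snhg1, known as the U22 host gene, was highest in all 4 ES groups, and Snhg4 was lowest in all 4. The order below Snhg1 changed with treatment. In CX-5461-treated cells Snhg15 came next at 146 and 143 TPM, then Snhg12 and Gas5, and the ranges of these 4 neighbours did not overlap. In rotenone-treated cells Gas5 came next, at 138 and 141 TPM, followed by Snhg12 and Snhg6, whose ranges overlapped. In rapamycin-treated and in untreated cells Snhg12 and then Gas5 followed Snhg1. Embryos had another order, with Gas5 highest, then Snhg3 and Snhg1, whose ranges did not overlap, and with the mean of Snhg12 lowest in both groups, although in CX-5461-treated embryos its range overlapped with that of Snhg17. Snhg12 had 17.3 and 11.3 TPM in CX-5461-treated embryos and 11.8 and 13.9 TPM in untreated embryos, far below its ES levels, while Snhg3 was several-fold above its ES levels, at 305 and 183 TPM in CX-5461-treated embryos and 171 and 169.7 TPM in untreated embryos. ES cells and embryos were prepared by different protocols and normalised in separate tables, so no test was made between them.

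**Figure D1:**
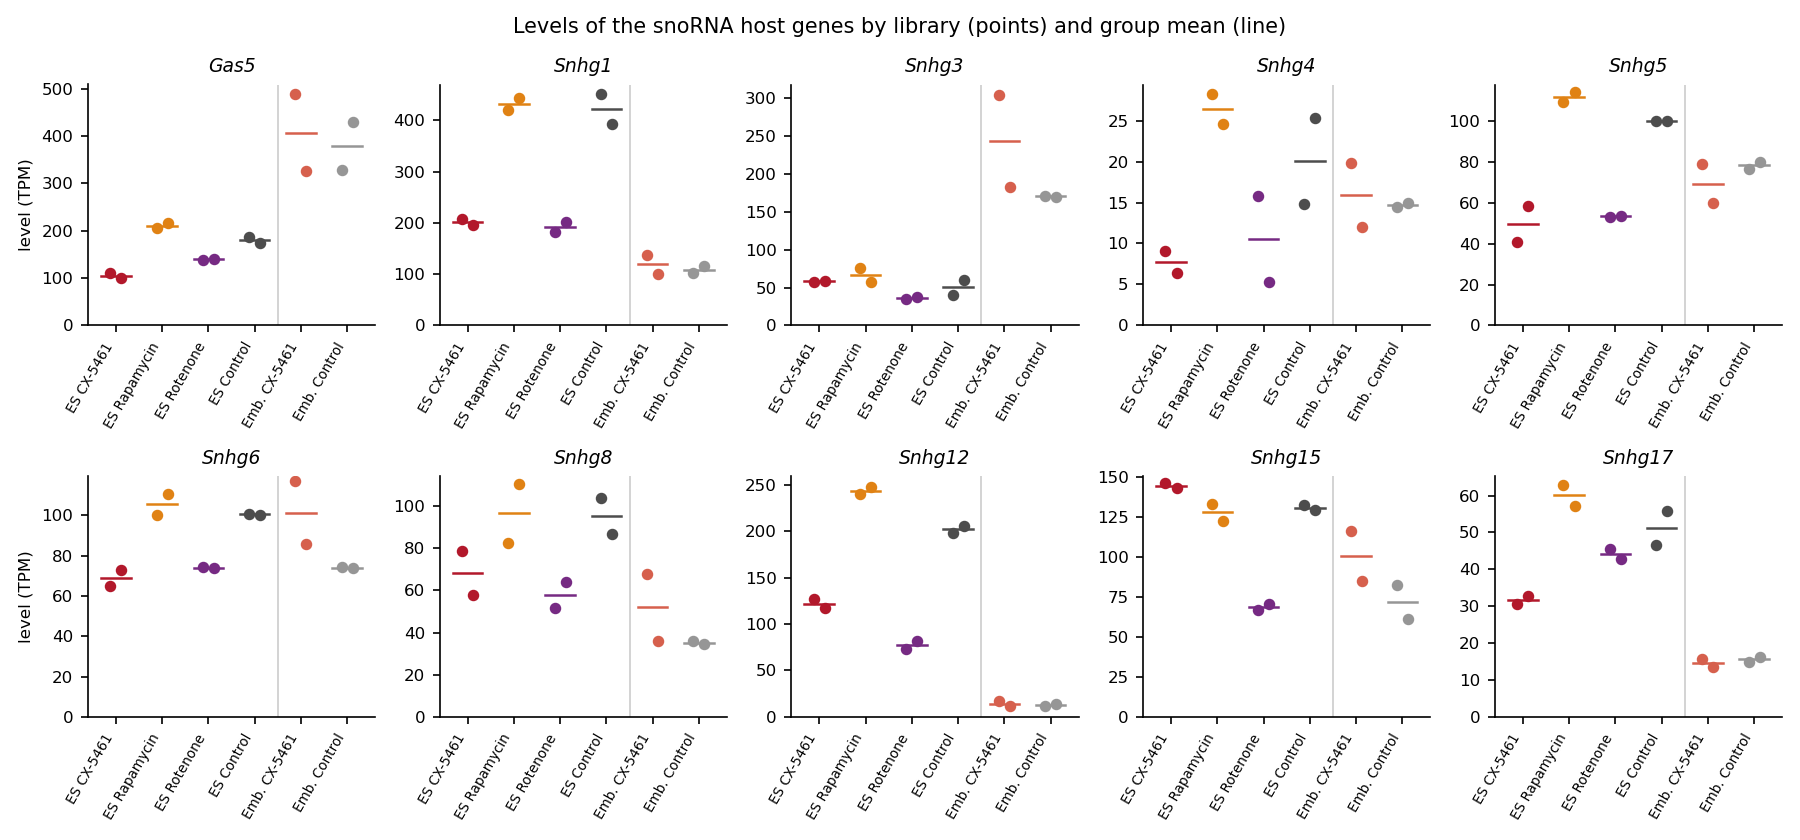
Level of each snoRNA host gene in TPM (linear axis from 0) in the 12 libraries, with 1 point per library and a line at the mean of each group of 2. In ES cells the CX-5461 and rotenone points lie below the control points in most panels, except that Snhg15 with CX-5461 lies above its controls, and the rapamycin points overlap with the controls or lie above them.

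CX-5461 against untreated ES cells asks what blocking RNA polymerase I does to these transcripts. Of the 10 genes, 6 fell (limma, adjusted p under 0.05), where 11.0% of all 17638 genes tested fell, and none rose, where 42.0% of all genes did. The fallen genes hosted both classes of snoRNA, and their mean levels came to between 0.476 and 0.683 of the untreated mean. The median log2 change of the 10 was -0.70, against 0.43 over all genes tested, so that relative to the median gene the hosts moved by -1.13. In 8 of the 10 both treated libraries lay below both controls, as in 19.4% of all genes, and in Snhg15 they lay above, as in 57.4%.

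Snhg1 (chr19:8723475-8726443, plus strand, 8 annotated snoRNAs inside) had 207 and 195 TPM in CX-5461-treated cells, against 452 and 392 TPM in untreated cells (log2 change -1.06 ± 0.10 SE, adjusted p = 0.000271). Both treated libraries lay at about the same level and far below both controls. Snhg5 (chr9:88521050-88522929, minus strand), the host of the U50 snoRNAs, had 40.6 and 58.3 TPM in treated cells, against 100.1 and 100.3 TPM (log2 change -1.03 ± 0.16 SE, adjusted p = 0.00211). Here the treated libraries differed more from each other than the controls did, but did not overlap them. Gas5 (chr1:161034422-161038539, plus strand, 10 snoRNAs), named for its accumulation in growth-arrested cells, had 109.8 and 100.1 TPM in treated cells, against 186 and 173 TPM (log2 change -0.77 ± 0.091 SE, adjusted p = 0.000634). Snhg12 (chr4:132308623-132311024, plus strand), which carries both classes of snoRNA, had 127 and 117 TPM, against 198 and 206 TPM (log2 change -0.73 ± 0.098 SE, adjusted p = 0.00105). In both genes the groups were clearly apart. Snhg17 (chr2:158353700-158361580, minus strand) had 30.5 and 32.7 TPM in treated cells, against 46.5 and 55.9 TPM (log2 change -0.67 ± 0.13 SE, adjusted p = 0.00441). Snhg6 (chr1:9941959-9944118, minus strand), the host of Snord87, changed least of the 6, with 64.8 and 72.7 TPM in treated cells, against 101 and 100.3 TPM (log2 change -0.54 ± 0.10 SE, adjusted p = 0.00434). These 6 calls held without any one of the 4 libraries and under each scaling tried.

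The remaining 4 genes did not pass the test. Snhg15 (chr11:6525591-6528760, minus strand), the host of Snora9, had 146 and 143 TPM in CX-5461-treated cells, against 132 and 129 TPM in untreated cells (log2 change 0.14 ± 0.090 SE, adjusted p = 0.214), and its sign turned with the scaling: with median-ratio scaling it fell by 0.34 on the log2 scale (adjusted p = 0.0478). Snhg3 (chr4:132348014-132353686, minus strand), the host of the U17 snoRNAs that take part in cleavage of the ribosomal RNA precursor, had 57.8 and 59.1 TPM, against 40.4 and 60.3 TPM, with a wide control spread (log2 change 0.24 ± 0.21 SE, adjusted p = 0.37). Its estimate was -0.24 with median-ratio and -0.12 with quantile scaling, and without untreated replicate 2 it rose (log2 change 0.52, adjusted p = 0.049). Snhg8 (chr3:123507552-123508404, minus strand), the host of Snora24, had 78.7 and 57.6 TPM, against 104 and 86.6 TPM (log2 change -0.49 ± 0.21 SE, adjusted p = 0.0924), and was called lower with both scalings. Snhg4 had the largest estimate and the lowest level, with 9.04 and 6.44 TPM in treated cells, against 14.8 and 25.3 TPM (log2 change -1.24 ± 0.46 SE, adjusted p = 0.0566, interval -2.33 to -0.15), and was likewise called with both. The scaling bears on these counts because the main scaling left the median gene 0.43 above control. It gave 7410 higher and 1940 lower calls over all genes, against 4589 and 4386 with median-ratio scaling, under which 9 of the 10 host genes were lower, and 3840 and 4428 with quantile scaling, under which 8 were.

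**Figure D2:**
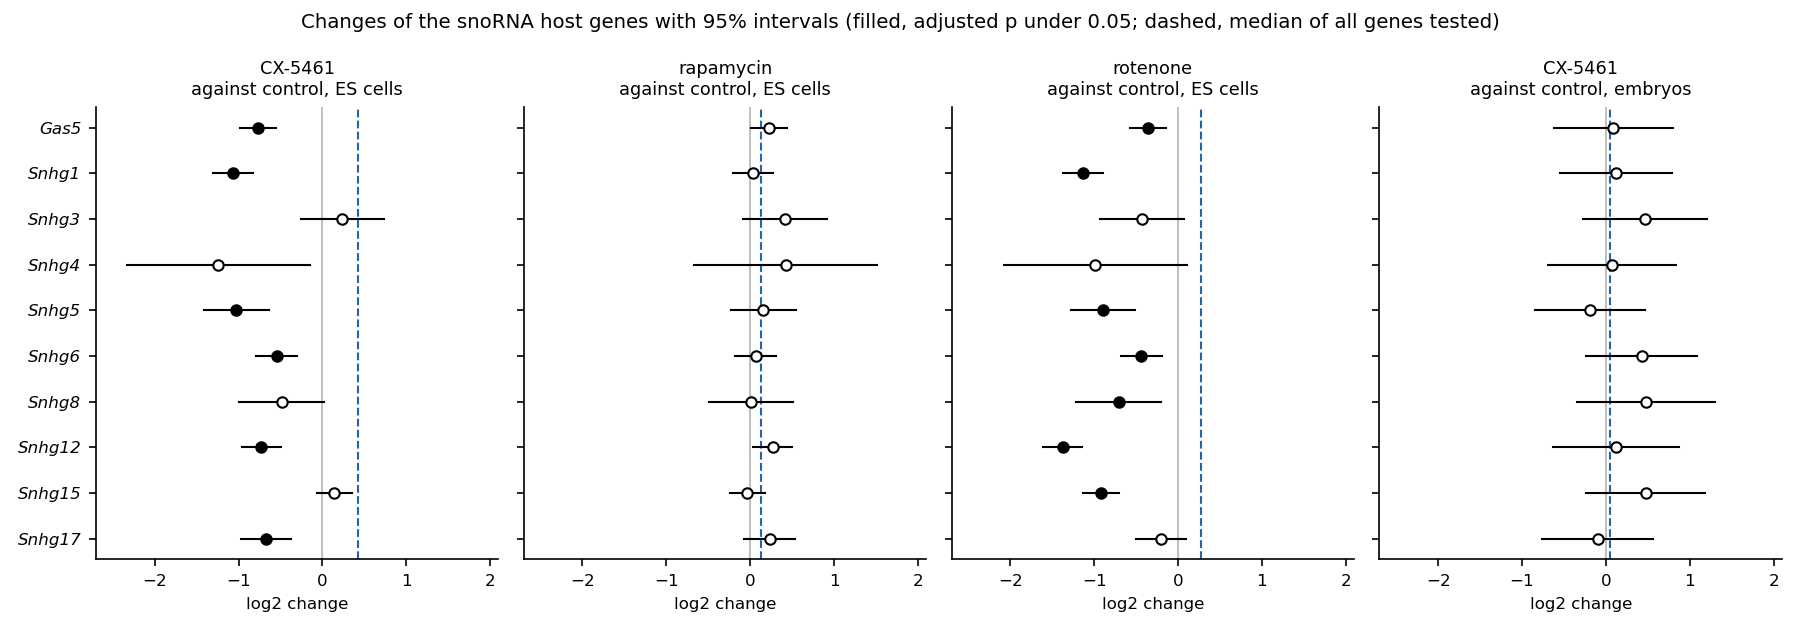
Log2 change of each host gene with its 95% interval in 4 comparisons, as log2(TPM + 1) from limma, with filled points at adjusted p under 0.05 and a dashed line at the median of all genes tested. With CX-5461, 6 filled points lie left of 0, with rotenone 7, and with rapamycin and in embryos there are none; with median-ratio scaling Snhg15 after CX-5461 lies left of 0 as well.

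Rapamycin against untreated ES cells compares RNA levels after an inhibitor of mTOR. Translation, which for mRNAs with terminal oligopyrimidine tracts depends on mTOR, was not measured. None of the 10 host genes was called, and few genes of any kind were. Only 0.0113% of all genes were lower and 0.0% higher, although 2351 had an unadjusted p under 0.05, and without untreated replicate 2 339 genes were higher and 28 lower, none of them a host gene. Most of the genes sat at or slightly above control, with a median log2 change of 0.19, against 0.13 over all genes. Gas5 had 206 and 216 TPM in rapamycin-treated cells, against 186 and 173 TPM in untreated cells (log2 change 0.23, interval 0.01 to 0.44, adjusted p = 0.362). Snhg12 had 239.7 and 248 TPM, against 198 and 206 TPM (log2 change 0.27, interval 0.04 to 0.50, adjusted p = 0.343). In these genes, as in Snhg5 and Snhg17, both treated libraries lay above both controls, 4 of 10 genes where 29.5% of all genes did so, and in none did both lie below, as 11.4% of all genes did. Snhg1 had 420.3 and 443 TPM, within the range of its controls, and its interval of -0.21 to 0.27 on the log2 scale does not reach the falls seen with the other drugs. Snhg4 was the least precisely measured, with an interval of -0.67 to 1.51.

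Rotenone against untreated ES cells, a stress of the respiratory chain, lowered 7 of the 10 genes, where 9.57% of all genes were lower, and raised none, where 30.6% were higher. Both treated libraries lay below both controls in 9 of the 10, as in 21.8% of all genes, and above them in none, as in 51.4%. The median log2 change of the 10 was -0.80, against 0.27 over all genes. Snhg12 moved most, with 72.7 and 82.0 TPM in rotenone-treated cells, against 198 and 206 TPM in untreated cells (log2 change -1.38 ± 0.098 SE, adjusted p = 0.000498). Snhg1 had 183 and 201 TPM, against 452 and 392 TPM (log2 change -1.13 ± 0.10 SE, adjusted p = 0.000856). Their mean levels came to 0.383 and 0.454 of the untreated means. Snhg15 had 66.9 and 70.5 TPM, against 132 and 129 TPM (log2 change -0.92 ± 0.090 SE, adjusted p = 0.00108), and Snhg5 had 53.3 and 53.5 TPM, against 100.1 and 100.3 TPM (log2 change -0.90 ± 0.16 SE, adjusted p = 0.00695). These 4 genes stayed called without any one library. The other 3 calls depended on single libraries, and that of Gas5 was also lost with a prior without trend (adjusted p = 0.0502) or with the 2 groups fitted alone (0.0575), and that of Snhg8 with no filter (0.0759), with a replicate block (0.0588) or with the exon length trend removed (0.0509). Gas5 had 138 and 141 TPM in treated cells (log2 change -0.36 ± 0.091 SE, adjusted p = 0.0207), Snhg6 74.1 and 73.8 TPM (log2 change -0.44 ± 0.10 SE, adjusted p = 0.0162) and Snhg8 51.7 and 64.2 TPM (log2 change -0.71 ± 0.21 SE, adjusted p = 0.0358). Gas5 was lost without rotenone replicate 1 (adjusted p = 0.108), rotenone replicate 2 (0.0897) or untreated replicate 1 (0.0705), Snhg6 without rotenone replicate 1 (0.0844) or 2 (0.0828), and Snhg8 without rotenone replicate 1 (0.178), rotenone replicate 2 (0.0702) or untreated replicate 1 (0.147). Without rotenone replicate 2, 4 of the 7 were called, while lower calls over all genes came to 629, against 1688 with all libraries. Snhg17 (log2 change -0.20 ± 0.13 SE, adjusted p = 0.235), Snhg3 (log2 change -0.43 ± 0.21 SE, adjusted p = 0.142) and Snhg4 (log2 change -0.99 ± 0.46 SE, adjusted p = 0.127) did not pass, and the libraries of Snhg4 overlapped. Snhg3 and Snhg17 were called lower with median-ratio scaling (-0.76, adjusted p = 0.0115, and -0.53, adjusted p = 0.00613) and with quantile scaling (-0.72, adjusted p = 0.017, and -0.47, adjusted p = 0.011), which gave 9 and 10 lower host genes. These scalings gave 3421 higher and 3436 lower calls, and 3086 and 3167, over all genes, against 5394 and 1688 with the main one.

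The drugs were also compared with one another, with the same libraries as above. CX-5461 against rapamycin gave 7 lower genes and none higher (8.76% of all genes were lower and 30.9% higher), the 6 named for CX-5461 and Snhg4, which had 9.04 and 6.44 TPM with CX-5461 and 28.3 and 24.5 TPM with rapamycin (log2 change -1.66 ± 0.46 SE, adjusted p = 0.0267). Snhg4 was lost without any one of the 4 libraries, at adjusted p of 0.0673 to 0.142. The libraries lay apart and lower with CX-5461 in 8 genes (21.4% of all genes) and higher in Snhg15 (51.1%). Rotenone against rapamycin gave 7 lower genes and none higher (6.2% of all genes were lower and 14.9% higher), and in all 10 both rotenone libraries lay below both rapamycin libraries, as in 23.6% of all genes, while 43.6% lay above. The largest of these differences was that of Snhg12, with 72.7 and 82.0 TPM with rotenone and 239.7 and 248 TPM with rapamycin (log2 change -1.65 ± 0.098 SE, adjusted p = 0.000723). Without rotenone replicate 2, 3 host genes were called, and without rotenone replicate 1, 4, while lower calls over all genes came to 259 and 210, against 1094 with all libraries.

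CX-5461 against rotenone was the one comparison in which host genes went both ways, with 2 higher (17.2% of all genes were higher) and 2 lower (4.93% were lower). The libraries lay apart in 3 genes in each direction, where 44.5% of all genes were apart and higher and 25.0% apart and lower. Snhg15 had 146 and 143 TPM with CX-5461, against 66.9 and 70.5 TPM with rotenone (log2 change 1.06 ± 0.090 SE, adjusted p = 0.000673), and Snhg12 had 127 and 117 TPM, against 72.7 and 82.0 TPM (log2 change 0.65 ± 0.098 SE, adjusted p = 0.00458). In both genes the libraries were far apart, and the calls held without any one library. Snhg17 had 30.5 and 32.7 TPM with CX-5461, against 45.6 and 42.7 TPM with rotenone (log2 change -0.47 ± 0.13 SE, adjusted p = 0.0392), and Gas5 had 109.8 and 100.1 TPM, against 138 and 141 TPM (log2 change -0.41 ± 0.091 SE, adjusted p = 0.0204). Both of these were lost without any one of the 4 libraries, at adjusted p of 0.12 to 0.191 for Snhg17 and of 0.0579 to 0.128 for Gas5. Snhg1 was not called between the drugs, with an interval of -0.17 to 0.31 on the log2 scale, and Snhg5 had an interval of -0.51 to 0.25.

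In embryos CX-5461 changed none of the 10 host genes at the threshold (limma). Over all 13289 genes tested 1 was higher (0.00753%) and none lower (0.0%), and 1646 had an unadjusted p under 0.05. The median log2 change of the hosts was 0.12, against 0.05 over all genes. Gas5, the highest of them here, had 489 and 325 TPM in CX-5461-treated embryos, against 329 and 429 TPM in untreated embryos (log2 change 0.09, interval -0.62 to 0.80). Snhg1 had 138 and 100.1 TPM, against 101 and 115 TPM (interval -0.55 to 0.79). Both overlapped with their controls. Snhg3 had 305 and 183 TPM in treated embryos, against 171 and 169.7 TPM (log2 change 0.47 ± 0.31 SE, adjusted p = 0.551), and Snhg8 had 67.6 and 36.2 TPM, against 36.1 and 34.4 TPM (log2 change 0.48 ± 0.35 SE, adjusted p = 0.579). In these, as in Snhg6 and Snhg15, both treated libraries lay above both controls, 4 of 10 genes where 27.6% of all genes did so, and in none did both lie below, as 19.2% of all genes did. CX-5461 replicate 1 was the higher treated library in all 10 genes, with a median log2 difference from the control mean of 0.41, against -0.14 for replicate 2. Leaving out replicate 2 gave 840 higher and 1166 lower calls over all 13289 genes, and among these were Snhg3 (log2 change 0.84, adjusted p = 0.0209) and Snhg8 (0.92, adjusted p = 0.0333), both higher. The ES falls of Snhg1, Snhg5, Gas5, Snhg12 and Snhg17 were not seen as calls in embryos, but the standard errors in embryos were 0.28 to 0.35, and the difference between ES cells and embryos was not tested.

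The snoRNAs inside these genes are listed in the tables as genes of their own. GENCODE M21 places 33 snoRNA genes inside 9 of the hosts on the same strand, and Snhg4 could not be placed. Snord80 in Gas5 and Snora16a in Snhg12 are each entered more than once at nearly the same place, and their entries are counted separately. Of the 33, 31 touch an annotated exon of some host isoform (the merged exons of Snhg1, Snhg8 and Snhg12 each form 1 unbroken block), so reads of such isoforms and of unspliced host RNA can be assigned to either. Mature snoRNAs carry no poly-A tail and the libraries were made from poly-A RNA. In ES cells 18 of the 33 stayed under 1 TPM in every library. The sequences are given for 4 with clear levels, from GENCODE M21 transcripts on GRCm38, with the C box (TGATGA) and D box (CTGA), or the ACA that ends 3 bases before the last base, in capitals.
Gm25789, in Gas5, chr1:161038308-161038383, plus strand: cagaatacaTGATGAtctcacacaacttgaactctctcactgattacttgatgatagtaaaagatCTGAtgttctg
Snord87, in Snhg6, chr1:9942463-9942549, minus strand: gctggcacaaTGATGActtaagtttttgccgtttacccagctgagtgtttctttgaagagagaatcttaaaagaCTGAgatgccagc
Snora24, in Snhg8, chr3:123507937-123508066, minus strand: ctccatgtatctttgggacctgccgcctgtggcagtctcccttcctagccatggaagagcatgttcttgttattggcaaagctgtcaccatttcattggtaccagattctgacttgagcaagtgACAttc
Snora61, in Snhg12, chr4:132310240-132310369, plus strand: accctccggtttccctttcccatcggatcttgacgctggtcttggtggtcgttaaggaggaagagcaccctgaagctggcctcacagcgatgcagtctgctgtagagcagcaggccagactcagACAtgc
Searched on the sense strand only, TGATGA in the first 20 bases together with CTGA in the last 15 was present in 17 of the 33 (51.5%), against 20.2% of all 1507 annotated snoRNA genes. A further 7 (21.2%) had only the ACA, against 18% of all.

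CX-5461 lowered 8 of the 14 hosted snoRNA genes tested in ES cells, rotenone lowered 9, rapamycin none, and no drug raised any. Over all genes, 11.0% were lower and 42.0% higher with CX-5461, and 9.57% and 30.6% with rotenone. Under median-ratio and quantile scaling CX-5461 again lowered 8, where 4386 and 4428 of all genes were lower, and rotenone 11 and 10, where 3436 and 3167 were. For 9 of the 14 the change with CX-5461 was below that of the host, and for 11 of the 14 with rotenone. The median log2 change of the 14 was -1.09 with CX-5461 and -1.61 with rotenone. Over the same 14 pairs, which fall in 7 host genes, the median host change was -0.75 and -0.43. A host with several snoRNAs counts once for each. Snord87, a box C/D snoRNA, had 5.43 and 7.44 TPM in CX-5461-treated cells and 0.541 and 7.31 TPM in rotenone-treated cells, against 45.8 and 46.7 TPM in untreated cells (log2 change -2.68, adjusted p = 0.0138, and -3.72, adjusted p = 0.00677). Its host Snhg6 changed by -0.54 and -0.44. Gm25789, inside Gas5, had 13.2 and 11.0 TPM with CX-5461 and 11.8 and 5.62 TPM with rotenone, against 109 and 57.7 TPM in untreated cells (log2 change -2.62, adjusted p = 0.0014, and -3.12, adjusted p = 0.00183). Snora24, a box H/ACA snoRNA, had 20.98 and 13.2 TPM with CX-5461 and 6.13 and 3.98 TPM with rotenone, against 54.0 and 38.9 TPM (log2 change -1.41, adjusted p = 0.00529, and -2.97, adjusted p = 0.000933). In all 3 the treated libraries lay below both controls. Snora61, inside Snhg12, had 70.6 and 67.8 TPM with CX-5461 and 33.9 and 44.1 TPM with rotenone, against 142 and 159 TPM (log2 change -1.11, adjusted p = 0.00086, and -1.93, adjusted p = 0.000536). An entry of Snora16a, inside Snhg12, was lower with rotenone alone (log2 change -2.08, adjusted p = 0.00783, against -0.02 with CX-5461, adjusted p = 0.976). Snora9, inside Snhg15, had 16.2 and 13.9 TPM with rotenone, against 5.27 and 0.465 TPM in untreated cells, and did not pass the test (adjusted p = 0.197). In embryos 11 were tested and none was called. The difference between a snoRNA gene and its host was not itself tested.

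**Figure D3:**
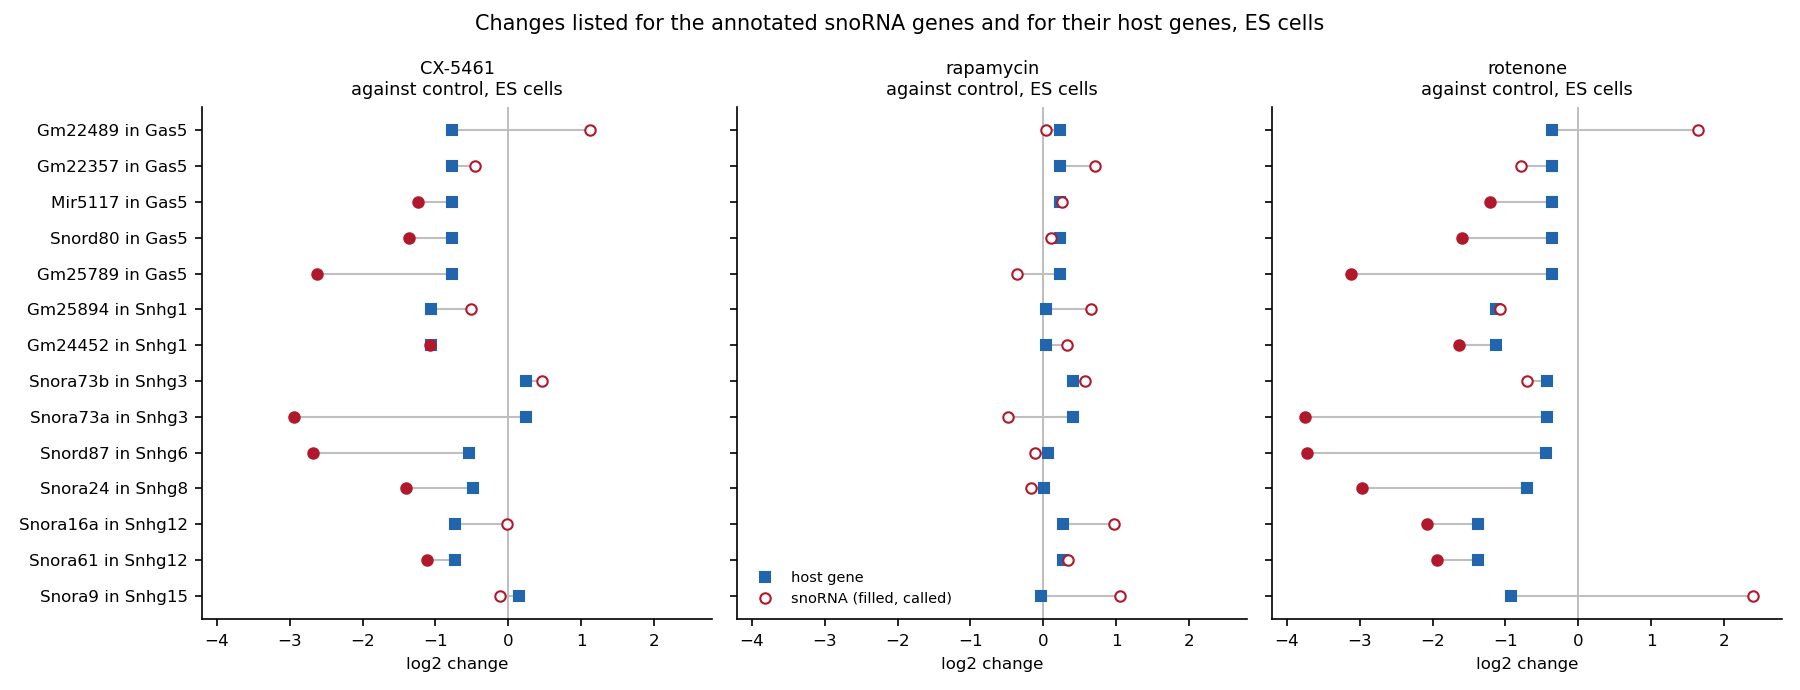
Log2 change of the 14 hosted snoRNA genes tested in ES cells (circles, filled where adjusted p is under 0.05) and of the gene that hosts each (blue squares), for the 3 drugs against untreated cells. With CX-5461 8 circles and with rotenone 9 circles are filled, all left of 0, and with rapamycin none.

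Snhg3 shares its ground with other annotated genes. Rcc1, which codes for the guanine nucleotide exchange factor of Ran, extends across nearly all of Snhg3 on the same strand, and Gm17300 (ENSMUSG00000091021), a noncoding gene at chr4:132351772-132353382 on the opposite strand, overlaps its 5′ portion. The study describes no step that marks strand, and without one the reads of a gene and of its antisense partner cannot be told apart. Gm17300 had 20.6 and 24.5 TPM with CX-5461 and 15.3 and 17.5 TPM with rotenone, against 65.2 and 68.5 TPM in untreated cells (log2 change -1.53, adjusted p = 0.000171, and -1.97, adjusted p = 0.000453). It fell with both drugs, while Snhg3 passed the test with neither under the main scaling and was lower with rotenone under median-ratio and quantile scaling. The difference between these genes was not tested. Snora73a, one of the U17 snoRNAs within Snhg3, had 2.04 and 4.96 TPM with CX-5461 and 1.32 and 1.56 TPM with rotenone, against 28.6 and 35.3 TPM (adjusted p = 0.0153 and 0.00971). Its rapamycin libraries lay far apart, at 8.62 and 56.7 TPM. Rcc1 had 142 and 147 TPM with CX-5461 and 143 and 139 TPM with rotenone, against 137 and 167 TPM, and was not called with either. Around the other hosts, Slc3a2, which starts beside Snhg1 on the opposite strand, was not called with CX-5461 (log2 change -0.19, adjusted p = 0.0743) or with rotenone (0.21, adjusted p = 0.0663). Neither was Zbtb37, which overlaps Gas5 (0.69, adjusted p = 0.174, and 1.02, adjusted p = 0.0752), nor Mcmdc2, which overlaps Snhg6 (-0.45, adjusted p = 0.067, and -0.19, adjusted p = 0.404).

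**Figure D4:**
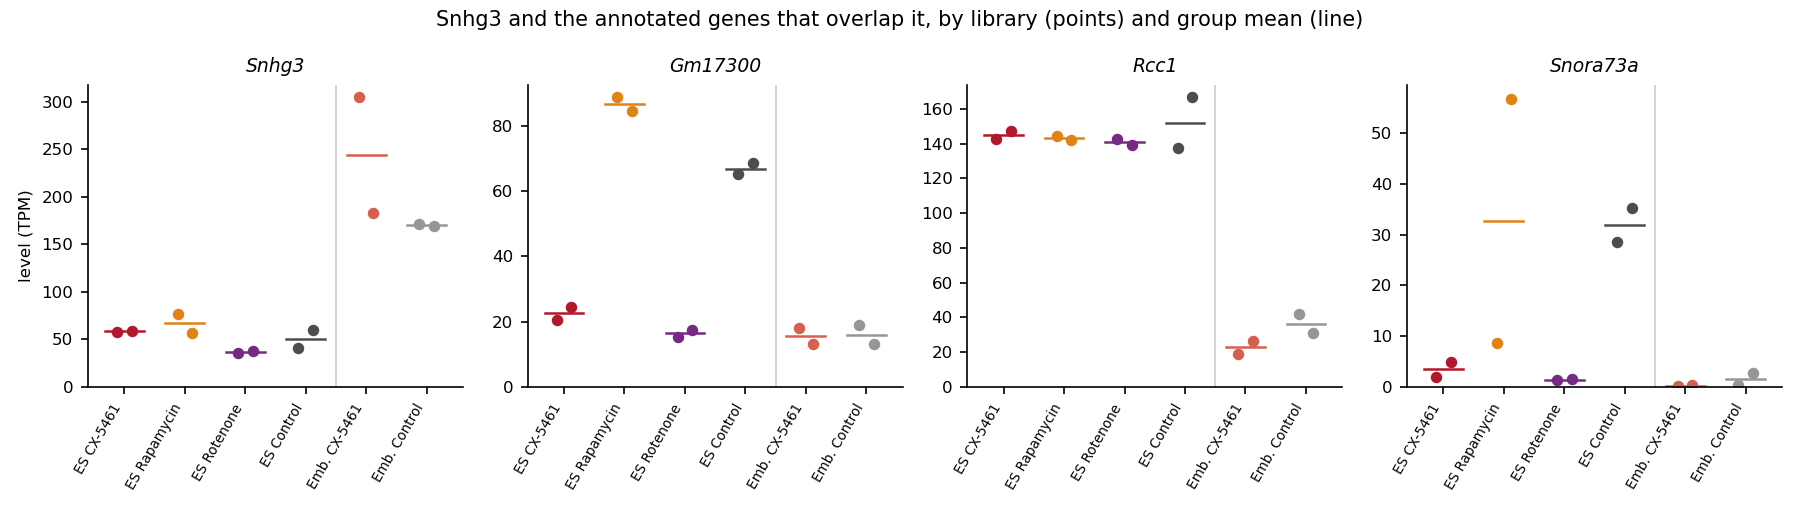
Level in TPM (linear axes from 0) of Snhg3 and of 3 annotated genes that overlap it, with 1 point per library and a line at each group mean. Gm17300 and Snora73a lie below their controls with CX-5461 and rotenone, while the ranges of Snhg3 with CX-5461 and of Rcc1 overlap with theirs.

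Other hosts of snoRNAs were counted in the same way, against the background of all genes given above (11.0% lower and 42.0% higher with CX-5461, 9.57% and 30.6% with rotenone). Counts under other scalings have another background. With median-ratio scaling 4386 of 17467 genes were lower and 4589 higher with CX-5461, and 3436 and 3421 with rotenone. With quantile scaling 4428 of 17541 genes were lower and 3840 higher with CX-5461, and 3167 and 3086 with rotenone. Of 11 further noncoding hosts, 9 could be matched and 8 passed the filter. With CX-5461 3 of the 8 fell and 2 rose, with rotenone 4 fell and 1 rose, and with rapamycin none was called. Under median-ratio and quantile scaling 3 and 4 fell and 2 rose with CX-5461, and with rotenone 5 fell and none rose. Zfas1, a noncoding host of box C/D snoRNAs, had 115 and 106 TPM with CX-5461 and 107 and 109 TPM with rotenone, against 262 and 235 TPM in untreated cells (log2 change -1.16 ± 0.099 SE, adjusted p = 0.000176, and log2 change -1.19 ± 0.099 SE, adjusted p = 0.000663). Snhg11 and Snhg18, both low, rose with CX-5461, to 14.5 and 19.4 TPM, against 2.14 and 6.18 TPM in untreated cells, and to 8.12 and 7.21 TPM, against 2.45 and 2.33 TPM (adjusted p = 0.00861 and 0.00106). Of 45 protein-coding hosts, 32 fell with CX-5461 and none rose, with a median log2 change of -0.49, and with rotenone 15 fell and 2 rose. Many of the 45 code for ribosomal proteins, among them the 3 named below, and whether these counts belong to snoRNA hosting was not tested. With quantile scaling 14 fell and 2 rose with CX-5461, where 4428 of all 17541 genes were lower, and with median-ratio scaling 43 fell. With rotenone, quantile and median-ratio scaling gave 9 and 25 lower, where 3167 and 3436 of all genes were. Rpl7a, a protein of the large ribosomal subunit and the called gene with the largest change, had 671 and 737 TPM with CX-5461, against 1581 and 1998 TPM in untreated cells (log2 change -1.34 ± 0.20 SE, adjusted p = 0.00172), followed by Rpl10 (-0.92) and Rps20 (-0.89). Of 20 proteins of snoRNPs and their assembly, 9 fell and none rose with CX-5461, and 9 fell and 1 rose with rotenone, but with median-ratio scaling 17 fell with CX-5461 and 13 with rotenone. Nop56, Nop58 and Dkc1 are in this list and among the 45 hosts. Fbl, the methyltransferase of box C/D particles, had 419 and 372 TPM with CX-5461, against 711 and 651 TPM (log2 change -0.79 ± 0.13 SE, adjusted p = 0.00283), and Snu13, which binds box C/D snoRNAs, and Nop10, of the H/ACA particle, changed by -0.68 and -0.60 (adjusted p = 0.0026 and 0.0187). The 18 factors of nonsense-mediated decay went both ways, with 5 higher and 3 lower in each of these comparisons. Under median-ratio or quantile scaling 3 were higher and 5 lower after CX-5461, and 2 higher and 4 lower after rotenone. Upf2, a core factor, had 62.4 and 63.3 TPM with CX-5461, against 23.0 and 37.9 TPM (log2 change 1.06 ± 0.21 SE, adjusted p = 0.00549), and Nbas and Smg6, an endonuclease of the pathway, changed by 1.25 and 1.46 (adjusted p = 0.00307 and 0.0458), the call of Smg6 being lost with both scalings. Smg6 had 32.7 and 38.2 TPM with CX-5461, against controls far apart at 5.97 and 23.9 TPM. Upf2, Nbas and Smg6 were named for the size of their change, and the 3 lower factors are not named. Rapamycin changed none of the genes in these lists at the threshold, nor did CX-5461 in embryos.

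**Figure D5:**
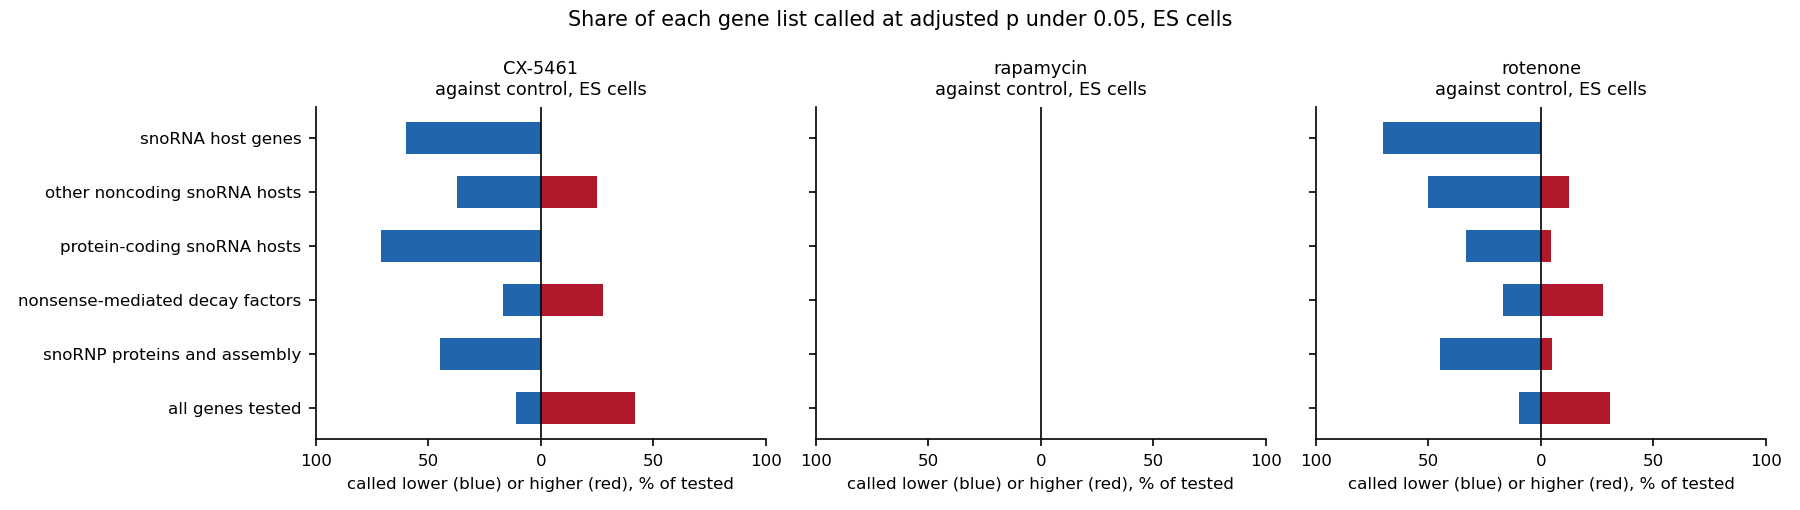
Share of the tested genes of each list called lower (blue, left of 0) or higher (red, right of 0) at adjusted p under 0.05 in ES cells, as percent of the list. With CX-5461 6 of 10 noncoding host genes and 32 of 45 protein-coding hosts are lower, against 11.0% of all genes tested, and with rapamycin no list has a call. With quantile scaling 14 of the 45 protein-coding hosts are lower, where 4428 of all 17541 genes tested are. Many of the 45 code for ribosomal proteins.

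Across the 8 ES libraries the members themselves differed in how closely they followed their mean profile of log2(TPM + 1). Snhg1 (Pearson r 0.97), Snhg12 (0.96), Snhg5 (0.94) and Snhg6 (0.94) followed it most closely, and Snhg3 (0.57) and Snhg15 (0.53) least, where each gene is itself a part of that mean. The 5 most like it, of 11779 other genes averaging 5 TPM or more, were Ier2 (0.99), Impdh2 (0.99), Gm17300 (0.99), Tfb1m (0.99) and Prmt8 (0.98). Ier2, an immediate early gene, averaged 267 TPM with CX-5461, 473 TPM with rapamycin, 244 TPM with rotenone and 393 TPM in untreated cells. Impdh2, the rate-limiting enzyme of guanine nucleotide synthesis, averaged 364, 491, 335 and 481 TPM in the same order. These r values describe 8 libraries of 4 groups, which share their treatments.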

How the data were processed

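RNA-seq of 8 ES cell libraries (4 groups) and 4 embryo libraries (2 groups) was used. TPM values per gene were deposited by the authors, who per the labels and the study's methods processed reads with CASAVA 1.8, trimmed them with Trimmomatic, aligned them to mm10 with HISAT2, removed duplicates with Picard and estimated TPM with StringTie over GENCODE genes. TPM is relative to all transcripts of a library, so a change in some abundant genes shifts the others, and it holds no read counts.

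From these files each library was rescaled to 1000000 TPM, and genes at 1 TPM or more in at least 2 libraries were kept (17638 of 53715 in ES cells, 13289 in embryos). Log2(TPM + 1) was fitted with limma 3.58.1 (R 4.3.3, empirical Bayes with a mean trend), all 4 ES groups in 1 fit and the embryos in another, with 7 two-sided comparisons and Benjamini-Hochberg adjustment over all genes tested. A gene was called at adjusted p under 0.05. Fold changes are on the log2(TPM + 1) scale, which understates those of low genes. The ES and embryo tables were normalised separately and were not tested against each other. Gene IDs were matched to GENCODE M21 (GRCm38) in 53620 of 53715 cases, and promoters and RefSeq starts come from the RefSeq table of GRCm38.p6.

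Named were all 10 host genes, annotated genes inside, overlapping or beside them, the 5 genes whose ES profile was most like theirs, and from each further list the 3 called genes with the largest change with CX-5461 in ES cells. Members, lists and tests were chosen with earlier results of these data known. The fit was tested on simulated data. Alternatives were other pseudocounts, filters, scalings, priors and covariates, a replicate block and each library left out.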

Additional observations from a re-analysis of the deposited data

Results flagged for a closer look

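Snhg6 and Snhg8 moved in opposite directions with CX-5461 in ES cells and in embryos, with every treated library on its own side of the controls. Snhg6 had a log2 change of -0.54 in ES cells and 0.43 in embryos, a difference of -0.97, and was called in ES cells only. Snhg8 had a log2 change of -0.49 in ES cells and 0.48 in embryos, a difference of -0.97, and was called in neither. In embryos Snhg8 rested on 1 library, since CX-5461 replicate 1 had 67.6 TPM and replicate 2 had 36.2 TPM, against 36.1 and 34.4 TPM in untreated embryos. The difference between the systems was not tested for either gene, since the tables were normalised separately.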

How the results depend on the processing

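With median-ratio scaling Snhg15 after CX-5461 turned to -0.34 (adjusted p = 0.0478) against untreated ES cells, and Rcc1 against rapamycin to -0.29 (0.0348), or to -0.30 (0.0182) with the exon length trend removed. Removing the exon length trend gave 4146 higher and 4565 lower calls over all genes with CX-5461 and 2758 and 3100 with rotenone, with 7 host genes lower in each (Snhg4 has no length), Snhg17 with rotenone at -0.76 (0.00159) among them. With a prior without trend CX-5461 against rotenone gave 2 host genes rather than 4. Leaving out 1 library at a time gave 4 to 7 host genes for rotenone against untreated cells, 2 in each case for CX-5461 against rotenone, 3 to 6 for rotenone against rapamycin and 0 to 2 in embryos. The deviations of same-numbered libraries correlated at -0.30 to 0.17, which with 2 libraries a group cannot settle whether they were paired. With a replicate block 6 host genes were called with CX-5461, 6 with rotenone and none with rapamycin or in embryos. Over all genes in embryos the block gave 80 higher and 12 lower calls, against 1 higher and none lower without it. Over the host genes, 707 of the values under other settings kept direction and side of the threshold, 26 passed it newly, 12 lost it and 1 turned; with libraries left out 243 kept both, 6 passed it newly and 31 lost it. A correction by median transcript length, added after seeing the data, is among these values. The set without Snhg15 was also added then and is not counted in them. Depth is unknown, and 2 libraries a group limit the precision.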
